A study of Saccharomyces cerevisiae with 103 samples.

Results

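The experiment described here was a depletion of Xrn1 through a degron. RNA levels and poly(A) tails of degron-Xrn1 cells were measured 30 min after auxin and copper had been added and at 0 min, and a WT culture (Ct) was the reference for the start. It holds 6 of the 103 libraries of a study of tail length in yeast, 3 of its 50 RNA-seq libraries and 3 of its 50 poly(A) tag libraries, chosen by their sample titles. Every group had 1 library of each kind, so no difference below has a replicate check and none was tested.

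All 3 cultures were SK1, a fast-sporulating laboratory strain of Saccharomyces cerevisiae, in vegetative growth in rich glucose medium (YPD). The 30 min group was degron-Xrn1 cells with 500 µM auxin (indole-3-acetic acid) and 50 µM CuSO4 added together during growth. The 0 min group was degron-Xrn1 cells with a labelled time of 0 min, and the Ct group was WT cells. No library had auxin alone or copper alone, so effects of Xrn1 loss, of auxin, of copper and of time cannot be told apart in this comparison. The sources used here do not give the promoters of the degron parts, the number of clones, the ploidy, or whether auxin or copper was added to the WT culture. RNA-seq libraries were made after ribosomal RNA depletion and count reads per gene. Poly(A) tag (mPAT) libraries were made after poly(A) selection and give the number of tags of a gene and their mean tail length. In such bulk samples, fewer cells of a type and less RNA per cell cannot be told apart.

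Xrn1 is the main cytoplasmic exonuclease that digests mRNA from its 5′ end. In the usual order of decay the poly(A) tail is first shortened, mainly by the Ccr4-Not complex, the cap is then removed by Dcp2 with its activators, and Xrn1 digests the body. Cells that lack Xrn1 are known to hold mRNAs with short tails that have not been digested. Copper acts by itself on a known set of genes: Ace1 (CUP2) turns on metallothionein genes when copper is high, and Mac1 turns on copper uptake when it is low.

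The promoter stretches shown here belong to genes on which the RNA results turn. Each stretch has 30 bases, reads 5′ to 3′ on the strand of the gene, and comes from the R64 (sacCer3) reference of strain S288C by RefSeq, not from SK1. Capitals mark the match to the motif, which appears as its reverse complement where it lies on the opposite strand. The motifs searched on both strands of the 500 bases before the coding start were TTNNGCTG for Ace1, TTTGCTC for Mac1, TGCACCC for Aft1, the heat shock element of Hsf1 (TTC, GAA and TTC with 2 free bases between them), and AGGGG for the stress response element. The first 3 lines are copper genes, the next 3 are iron-uptake genes, and the last 3 are heat shock genes.
CUP1-2, chrVIII:214884-214913, minus strand: ctgaaccgttcCAGCAAAAaagactaccaa
CTR1, chrXVI:785886-785915, plus strand: gacggtaaaatGAGCAAAaatggcacgatc
FRE1, chrXII:568460-568489, plus strand: ttttgaagtcgTTTGCTCtcttccatgctt
FRE4, chrXIV:739503-739532, plus strand: gtctaaaaattTGCACCCtatttaacatag
SIT1, chrV:27458-27487, plus strand: aacacatttgaGGGTGCAatctggttcgtc
FIT2, chrXV:1059389-1059418, plus strand: cgaatctaactGGGTGCAgtataattagca
BTN2, chrVII:772107-772136, plus strand: tttttctaGAAAGTTCCGGAAaattgcgac
HSP42, chrIV:806375-806404, plus strand: aagttctgGAAGGTTCGCGAAttgagaact
SSA1, chrI:141671-141700, minus strand: tcttctttTTCCAGAACGTTCcatcggcgg

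The number of matches in the whole window was 4 for Ace1 in the CUP1-2 promoter, 2 and 3 for Mac1 in the CTR1 and FRE1 promoters, 4 for Aft1 in the FIT2 promoter, and 3 for the heat shock element in the SSA1 promoter. Over 5987 promoters of the same length, 21.9% held the Ace1 letters, 8.62% the Mac1 letters, 2.32% the Aft1 letters, 1.49% the heat shock element and 34.1% the stress response element. A match is a description of the letters and not a site that was shown to be bound.

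The 30 min libraries were the deepest, with 4583279 RNA-seq counts, against 1350846 at 0 min and 1299404 in WT. Tags numbered 5051943 at 30 min, against 3996220 at 0 min and 3056546 in WT. A count of 0 allows up to 0.563 CPM (reads of a gene over the TMM-scaled library total, the usual CPM unit) at 30 min, 2.36 CPM at 0 min and 2.52 CPM in WT, taking 3 counts as the floor. Floors and intervals cover counting error only. In place of replicates of its own, the spread between replicate libraries of the study's sporulation and return-to-growth experiments serves as a yardstick at other depths. There, 95% of genes lay within 0.64 and 0.75 on the log2 scale for RNA and within 8.33 and 10.7 nt for tails, as medians over 10 and 6 pairs of libraries.

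XRN1 RNA checks the labels only in part, because a degron acts on the protein. XRN1 had 648 counts (122 CPM) at 30 min, 163 counts (128 CPM) at 0 min and 273 counts (229.6 CPM) in WT. The log2 difference was -0.08 for 30 min against 0 min and -0.84 for 0 min against WT. XRN1 poly(A) tags numbered 21 at 30 min and 17 at 0 min, against 273 in WT. Both degron-strain libraries were thus further below WT in tags of this gene than in its RNA, and they were alike between 30 and 0 min. In separate libraries of the study, the xrn1 deletion had a log2 difference of -6.08 from its wild type, with 2 counts against 299.

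A second gene also separated the degron strain from WT. HIS3, a histidine biosynthesis gene often used as a genetic marker, had 0 counts at 30 min and 2 at 0 min, against 130 in WT, with 1 tag at 30 min and 0 at 0 min, against 111 in WT. The strains therefore differ at HIS3 RNA besides XRN1. Glycolytic and translation genes that mark growth in glucose were high in all 3 cultures, with the 6 markers between 5179 and 13937 CPM at 30 min, 5727 and 22786 CPM at 0 min, and 8584 and 20757 CPM in WT. The 8 markers of meiosis summed to 90.2 CPM at 30 min, 46.5 CPM at 0 min and 35.3 CPM in WT. The 6 markers of haploid a cells summed to 40.5 CPM at 30 min, 11.8 CPM at 0 min and 19.3 CPM in WT, and the 4 of alpha cells to 49.5, 28.4 and 20.2 CPM in the same order, with STE3 and MF(ALPHA)1 at 0 counts at 30 min and at 0 min and at 1 count each in WT. The 6 markers of either haploid type summed to 55.3 CPM at 30 min, 32.3 CPM at 0 min and 31.1 CPM in WT. At 30 min the highest single gene gave 21.2 CPM of the a cell sum and 42.4 CPM of the alpha cell sum. The meiosis, a cell, alpha cell and either haploid sums were highest at 30 min, and their part in the results was not tested.

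Poly(A) tails were shorter at 30 min than at 0 min across almost the whole transcriptome. A gene's tail is its mean tail length in nucleotides (nt) as deposited, used where it rested on at least 20 tags, which held for 5250 genes at 30 min, 4765 at 0 min and 4351 in WT. Over the 4286 genes with 20 tags in all 3 libraries, the median tail was 26.1 nt at 30 min, against 38.0 nt at 0 min and 39.7 nt in WT. The difference between 30 and 0 min over 4747 genes had a median of -11.7 nt, with quartiles of -15.9 and -7.62 nt, and it was below 0 for 4656 genes, 98.1%. At least 5 nt shorter were 4117 genes (86.7%), and at least 5 nt longer were 14 genes (0.295%), 87.0% in both directions. Between replicate libraries of the sporulation experiment, a median of 21.5% of genes differed by at least 5 nt in either direction, and whole libraries were shifted against each other by 0.867 to 4.76 nt. Vegetative wild-type libraries of different experiments lay further apart, with medians of 38.0 nt in the WT library used here, 36.1 nt in that of the deletion experiment and 28.6 nt in that of the Ccr4 experiment, over the same 2351 genes.

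**Figure D1:**
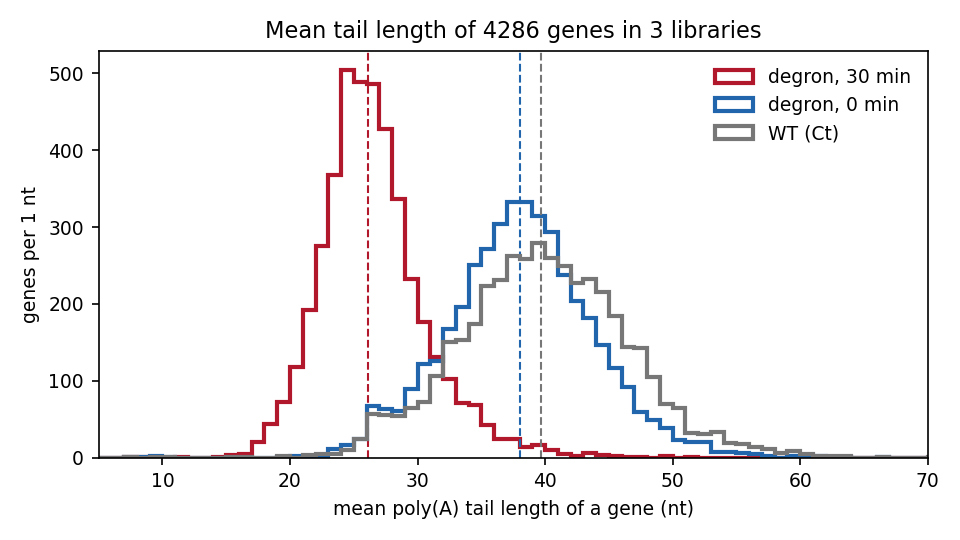
Number of genes per 1 nt of mean poly(A) tail length in the degron culture at 30 min (red) and 0 min (blue) and in WT (grey), for the 4286 genes with at least 20 tags in all 3 libraries. Dashed lines mark the medians, 26.1 nt at 30 min, 38.0 nt at 0 min and 39.7 nt in WT; the 30 min distribution is the narrowest and lies to the left.

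The range of tails was also narrower at 30 min. From the 10th to the 90th percentile, tails spanned 21.8 to 31.7 nt at 30 min, 30.6 to 45.1 nt at 0 min and 31.6 to 48.0 nt in WT, and the SD over genes was 4.17 nt at 30 min, 5.80 nt at 0 min and 6.63 nt in WT. Only 35 genes had a mean tail over 40 nt at 30 min, against 1502 at 0 min and 2078 in WT. Under 20 nt were 154 genes at 30 min, 6 at 0 min and 8 in WT. Weighted by tags, so that abundant mRNAs count most, the mean tail was 25.9 nt at 30 min, against 30.4 nt at 0 min and 30.4 nt in WT. The weighted mean difference per gene was -5.22 nt, closer to 0 than the median over genes.

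Genes with long and with short tails in WT had nearly the same median tail at 30 min. The genes were sorted by their tail in WT into 5 equal bins, a library that takes no part in the 30 against 0 min difference. In the bin with the shortest WT tails, the median tail was 25.2 nt at 30 min and 31.4 nt at 0 min, a median difference of -5.52 nt. In the bin with the longest, it was 27.3 nt at 30 min and 43.2 nt at 0 min, a median difference of -15.4 nt. The 3 bins between had medians of 26.0, 25.9 and 26.6 nt at 30 min, so the 5 medians at 30 min spanned 25.2 to 27.3 nt.

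The RNA level in WT ordered the differences as well. The most abundant bin had a median difference of -7.07 nt, with 26.3 nt at 30 min and 34.2 nt at 0 min. The least abundant bin had a median difference of -13.9 nt, with 26.1 nt at 30 min. By gene length the spread was smaller, from -8.69 nt in the shortest bin of genes to -13.0 nt in the next to longest.

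**Figure D2:**
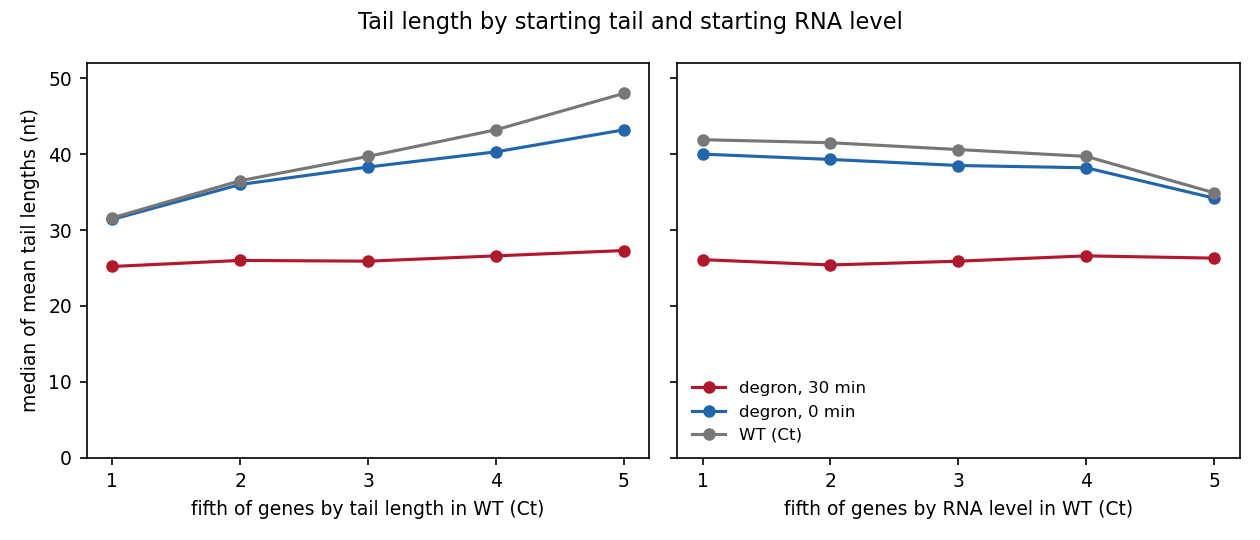
Median of the mean tail lengths (nt) in 5 equal bins of the genes sorted by tail length in WT (left) or by RNA level in WT (right), 1 being the lowest bin, at 30 min (red), at 0 min (blue) and in WT (grey). The red line stays between 25.2 and 27.3 nt on the left while the blue line spans 31.4 to 43.2 nt; WT values set the order of the left panel.

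The order of genes by tail length was another at 30 min than in wild type. Across 4997 genes, Spearman's rho between the tail at 30 min and the tail in a wild type of another experiment of the study was 0.20, against 0.69 across 4686 genes for the tail at 0 min and that same wild type. The rho between the tail at 30 min and the tail in the xrn1 deletion was 0.53. These are descriptions across genes of 1 library each, and tags of low-count genes add noise to all of them.

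The lasting loss of Xrn1 gives separate libraries to set beside the degron. In vegetative xrn1 deletion cells against wild type the median tail difference was -14.7 nt over 5096 genes, with 97.9% of genes below 0, against -11.7 nt for the degron after 30 min. Over the 4676 genes with both values, 4071 were at least 5 nt shorter in the degron comparison and 4277 in the deletion comparison. They shared 3970 genes, which were 97.5% of the degron list and 92.8% of the deletion list. As 4277 and 4071 of the 4676 genes were that much shorter anyway, most of this overlap follows from the totals. Spearman's rho of the 2 tail differences across these genes was 0.66, and that of the RNA differences across 5429 genes was 0.58. Each tail difference holds its own starting tail, and the starting tails of the 2 experiments had a rho of 0.69 across 4686 genes. The rho of 0.66 is therefore partly built in.

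RNA levels differed in both directions. With a minimum of 10 counts in the mean, 5917 genes could be compared, of which 609 (10.3%) were higher and 295 (4.99%) lower at 30 min by a log2 difference of at least 1, that is 2-fold. The median log2 difference of all genes was 0.03, with quartiles of -0.40 and 0.52. Scaled by library totals alone, the median became 0.33 and the split 1060 higher against 119 lower, 89.9% higher instead of 67.4%, so that directions below are relative to the middle of the transcriptome. In poly(A) tags, 567 of 5148 genes (11.0%) were higher and 407 (7.91%) lower. Library totals alone moved the tag median of all genes from 0.08 to 0.69 and the split to 1653 higher against 46 lower, 97.3% higher instead of 58.2%.

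RNA differences followed the level of the gene. In the least abundant bin of genes by WT RNA level the median log2 difference was 0.34, and in the most abundant bin it was -0.46. The 0 min library had fewer counts than the 30 min library, so ratios of the rarest genes rest on few counts. RNA and tail differences had little relation to each other across 4692 genes, with a Spearman's rho of -0.15. The median tail difference was -12.9 nt for the 326 genes with RNA higher by at least 1 that had tails in both libraries, -11.2 nt for the 250 with lower RNA and -11.7 nt for the rest.

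**Figure D3:**
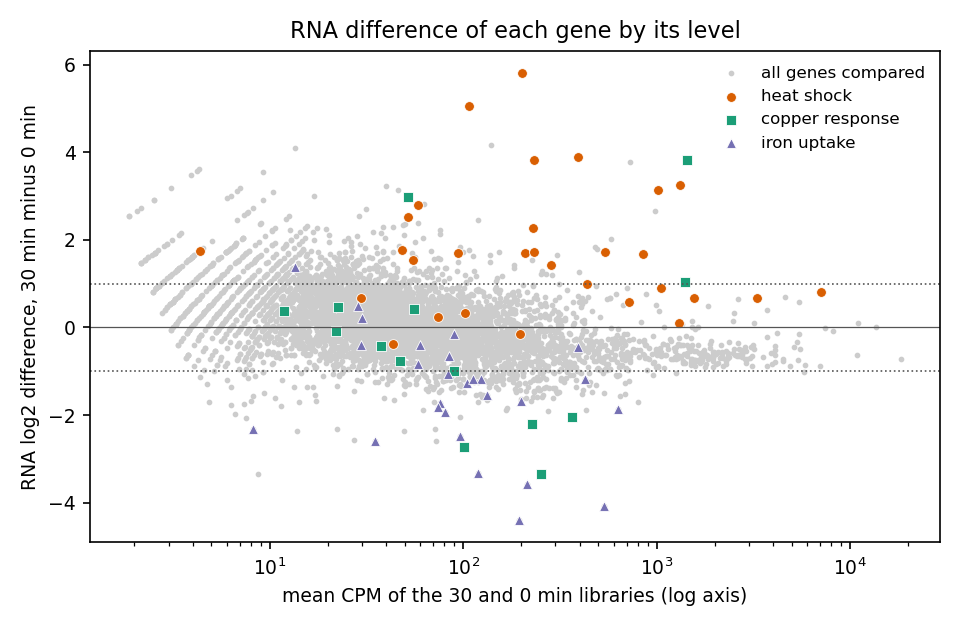
RNA log2 difference of each of 5917 genes, 30 min minus 0 min, against its mean CPM in both libraries (log axis). Dotted lines mark a difference of 1 in size; heat shock genes (orange circles) reach 5.81 above 0, iron-uptake genes (purple triangles) reach -4.40, and copper genes (green squares) lie on both sides.

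Copper genes went both ways. Of the 15 genes of copper homeostasis 14 had enough counts, and 3 were higher and 4 lower, against 10.3% and 4.99% of all genes. CUP1-2, which encodes the copper-binding metallothionein, had 14228 counts (2669 CPM) at 30 min, 237 counts (187 CPM) at 0 min and 42 counts (35.3 CPM) in WT. It was 14.3 times higher at 30 min than at 0 min, with a 95% counting interval of 12.6 to 16.3. Its tags numbered 18354 at 30 min, against 692 at 0 min and 117 in WT. Of the near-identical CUP1 copies, CUP1-1 had 0 RNA-seq counts in the 3 libraries and 6 tags at 30 min. How reads shared by the copies were assigned is not known, so CUP1-2 may stand for both.

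CRS5, a second metallothionein annotated as a pseudogene in S288C, had 494 counts at 30 min, 14 at 0 min and 5 in WT, a log2 difference of 2.99 between 30 and 0 min. SOD1, the copper-zinc superoxide dismutase, had 1894 CPM at 30 min, against 926 CPM at 0 min and 1172 CPM in WT. Of the 5 genes of copper uptake 3 were lower by at least 1, while CTR2, the vacuolar transporter, had -0.43 and FRE7, a reductase gene, had 0.38. CTR3, a copper transporter, had 44.3 CPM at 30 min, against 459 CPM at 0 min and 560.2 CPM in WT, a log2 difference of -3.35 between 30 and 0 min. CTR1, the other high-affinity copper transporter, had 80.1 CPM at 30 min, against 373 CPM at 0 min and 417 CPM in WT.

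For both transporters the 0 min and WT libraries lay close together and only the 30 min library was low. FRE1, a cell-surface reductase of copper and iron, had 143 CPM at 30 min, against 589 CPM at 0 min and 207 CPM in WT. CCC2, which loads copper into the secretory pathway for the iron oxidase, had 25.9 CPM at 30 min, against 176 CPM at 0 min and 33.6 CPM in WT. The regulators were near level in RNA, with log2 differences of -0.09 for CUP2 and 0.46 for MAC1. CTR3 and CRS5 had no match to the Mac1 and Ace1 letters in the S288C window read. This does not show whether their promoters in SK1 hold such letters.

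The Ccr4 induction experiment of the study added the same 50 µM CuSO4 without auxin for 60 min, to a strain in which the copper-driven CUP1 promoter controls CCR4. Its 60 against 0 min log2 differences were 3.65 for CUP1-2, 1.92 for CRS5, -6.23 for CTR3, -3.09 for CTR1 and -2.85 for FRE1. In the degron experiment the values were 3.83, 2.99, -3.35, -2.21 and -2.04. CTR3 had 8 counts at 60 min there, against 735 at 0 min. SOD1, with 1.03 in the degron experiment, had 0.12, and CCC2, with -2.73, had -0.26. Tails were shorter in that experiment as well, with a median difference of -4.92 nt over 2561 genes and 87.7% of genes below 0. Copper and the induction of CCR4 cannot be told apart there. The times and strains of these experiments differ, and both pairs have 1 library a group.

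The tail of CUP1-2 was the longest of all genes at 0 min and close to the others at 30 min. Its mean was 29.8 nt at 30 min, against 66.7 nt at 0 min and 38.1 nt in WT. The difference of -36.9 nt was the largest among genes with at least 100 tags in both libraries. RSC30, the neighbouring gene on chromosome VIII, had 9552 tags at 30 min, against 1553 at 0 min and 191 in WT, with tails of 30.5 nt at 30 min, 48.1 nt at 0 min and 38.0 nt in WT. Its RNA was 197 CPM at 30 min, against 217 CPM at 0 min and 97.6 CPM in WT, so tags and RNA counts of RSC30 did not move together.

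Iron-uptake genes were lower at 30 min than at 0 min. All 27 genes of the iron regulon list had enough counts, 18 were lower by at least 1 (4.99% of all genes) and 1, the reductase gene FRE2, was higher (10.3%), with a median log2 difference of -1.26 against 0.03 over all genes. By role, all 4 siderophore transporters, all 3 cell wall mannoproteins of the FIT family and 4 of 5 permease or oxidase genes were lower. Every one of the 24 members with tails in both libraries was at least 5 nt shorter (86.7% of all genes), with a median of -16.1 nt against -11.7 nt over all genes. In tags, 14 of 26 were lower (7.91% of all genes) and 1 was higher.

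FRE4, a siderophore-iron reductase, had 90 counts (16.9 CPM) at 30 min, 471 counts (371 CPM) at 0 min and 27 counts (22.7 CPM) in WT. It had the lowest RNA difference of all genes, -4.40. SIT1, a transporter of siderophore-bound iron, had 59.1 CPM at 30 min, against 1014 CPM at 0 min and 57.2 CPM in WT. FIT2, a cell wall protein that holds siderophores, had 21.0 CPM at 30 min, against 218 CPM at 0 min and 1.68 CPM in WT. FET3, the multicopper oxidase of high-affinity iron uptake, had 270.3 CPM at 30 min, against 986 CPM at 0 min and 119 CPM in WT. In each of these genes the 0 min library was the highest of the 3.

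The iron genes also differed at the start. Before auxin and copper, the degron library was already above WT in 25 of the 27 genes, 18 of them by at least 1, with a median log2 difference of 2.23, while 2.91% of all genes were that much higher and 6.12% were past 2-fold in either direction. At 30 min, 24 of 27 were below the 0 min library and 21 were still above WT, and 18 lay between the 0 min and the WT value. FIT2 had a log2 difference of 6.48 and FIT1 of 6.09 between 0 min and WT, the 2 highest of all genes. FIT2 lay below the floor of the WT library, so the size of its difference depends on the prior count. Both comparisons use the same 0 min library, so a high value in it enters both with opposite sign, and no second 0 min library exists to check it. In separate libraries, the list's median log2 difference was -0.84 for 60 against 0 min of the Ccr4 induction, with copper and without auxin. For the xrn1 deletion against wild type it was 0.91. The cause of these differences was not tested.

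In wild-type and 0 min libraries of other experiments of the study, scaled separately, SIT1 had 62.4, 145 and 118 CPM and FET3 had 50.1, 224 and 163 CPM, for the wild type of the deletion experiment and the 0 min and WT libraries of the Ccr4 experiment. The 0 min degron library, with 1014 and 986 CPM, was above all of them. CUP1-2 at 0 min stood apart in the same way, with 187 CPM against 40.9, 31.2 and 30.7 CPM. Of the 27 promoters 21 (77.8%) held the Aft1 letters, against 2.32% of all promoters, and among all genes lower by at least 1 the share was 7.06% (19 of 269). The list is made of known targets of Aft1, so its share is part of how it was chosen.

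**Figure D4:**
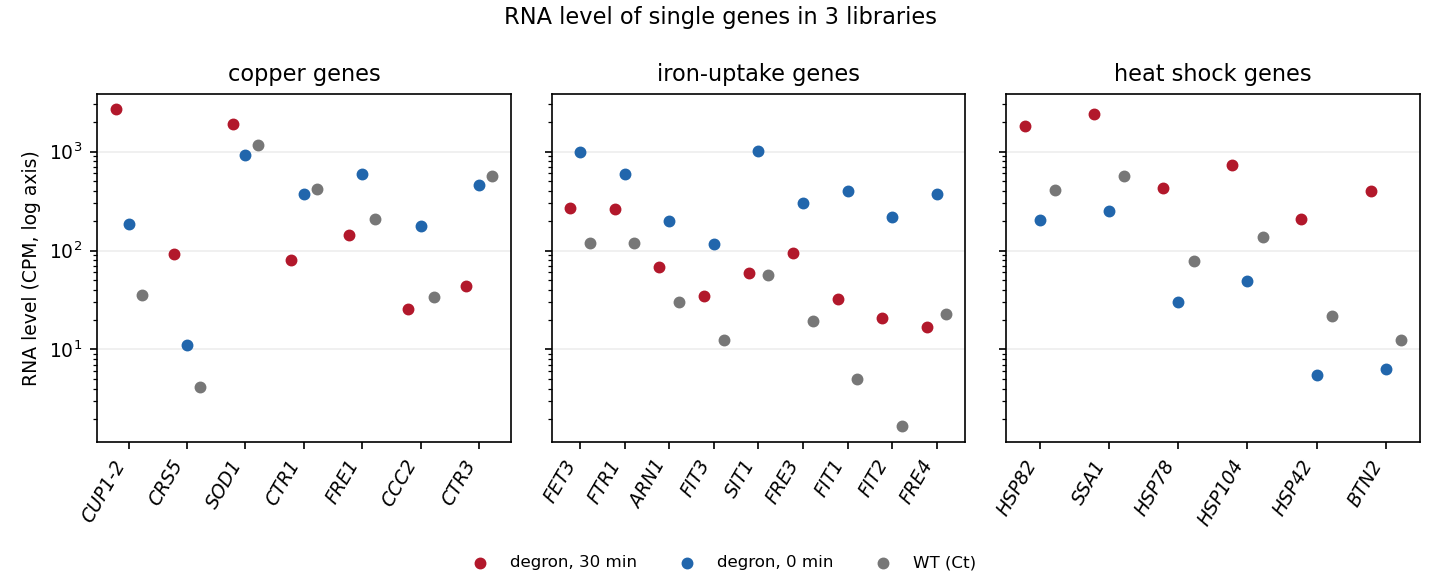
RNA level (CPM, log axis) of copper, iron-uptake and heat shock genes in the degron culture at 30 min (red) and 0 min (blue) and in WT (grey); each point is 1 library. CUP1-2 and the heat shock genes are highest at 30 min, CTR1 and CTR3 are lowest at 30 min, and the iron-uptake genes are highest at 0 min.

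Heat shock genes had the highest median RNA difference of the lists. All 30 had enough counts, 19 were higher by at least 1 (10.3% of all genes) and 0 were lower, with a median log2 difference of 1.69 against 0.03 over all genes. BTN2, a sorting factor that gathers misfolded proteins, had 2112 counts (396 CPM) at 30 min, 8 counts (6.30 CPM) at 0 min and 15 counts (12.6 CPM) in WT. Its log2 difference of 5.81 was the highest of all genes, and its ratio of 62.9 had a counting interval of 31.9 to 146. HSP42, a small heat shock protein that sequesters aggregates, had 1115 counts at 30 min, 7 at 0 min and 26 in WT. HSP104, the disaggregase, had 737 CPM at 30 min, against 48.8 CPM at 0 min and 137 CPM in WT.

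SSA1, a cytosolic Hsp70 chaperone, had 2398 CPM at 30 min, against 249 CPM at 0 min and 566 CPM in WT. HSP82, the inducible Hsp90 gene, had 1819 CPM at 30 min, against 204 CPM at 0 min and 413 CPM in WT. SSA1 and HSP82 have close paralogs, SSA2 and HSC82, with which they can share reads; those had log2 differences of 0.80 and 0.68. The activator itself, HSF1, had a log2 difference of 0.24. At the start the list was slightly below WT, with 5 of 29 genes lower (3.21% of all genes) and 0 higher and a median of -0.35, and at 30 min 27 of 29 were above WT as well as above 0 min.

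The separate experiments gave other values for the same list. Its median log2 difference was -0.14 for the xrn1 deletion against wild type and -0.05 for 60 against 0 min of the Ccr4 induction, where copper was added without auxin. SSA1 had 0.24 in the deletion and -0.09 in the Ccr4 experiment, HSP104 had 0.81 in the deletion and -0.10 in the Ccr4 experiment, and BTN2 had 0.09 in the deletion and 1.21 in the Ccr4 experiment. The difference between these experiments was not tested, as each rests on 1 library a group. The heat shock element was found in 13 of 30 promoters of the list (43.3%), and the HSP82 promoter had no match. The list is made of known heat shock genes, so this share is part of how it was chosen. Among all genes higher by at least 1 it was in 3.17% (18 of 568), against 1.52% of all genes compared.

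Heat shock mRNAs had smaller tail differences than most, as had some other lists. Medians were -2.59 nt for cytosolic ribosomal proteins, -3.57 nt for gluconeogenesis, -5.14 nt for hexose transport and -5.25 nt for glycolysis. Heat shock tails had a median of 34.7 nt at 0 min, and the bin of genes with the shortest WT tails had a median difference of -5.52 nt. The median tail difference of the 27 heat shock genes with tails in both libraries was -4.45 nt, 13 were at least 5 nt shorter (86.7% of all genes) and 2 at least 5 nt longer (0.295% of all genes). With at least 100 tags in both libraries the list's median was -0.0769 nt, against -9.93 nt for all genes. Those 2 were SSA1, with 29.4 nt at 30 min, against 24.0 nt at 0 min and 30.7 nt in WT, and HSP12, a small membrane-protecting stress protein, with 32.6 nt at 30 min, against 24.1 nt at 0 min and 32.8 nt in WT. Both tails were close to the WT length at 30 min. The chaperonins HSP60 and HSP10 of the mitochondrial matrix were 3.99 and 3.45 nt longer, at 37.3 and 38.8 nt. FES1, the nucleotide exchange factor of Hsp70, went the other way, with 21.1 nt at 30 min, against 45.6 nt at 0 min and 43.1 nt in WT, as did BTN2, with 16.8 nt at 30 min and 38.9 nt in WT and too few tags at 0 min. In the xrn1 deletion the list's median tail difference was -12.1 nt.

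General stress genes, the targets of Msn2 and Msn4 in carbohydrate storage and protection, were higher too. Of 38 genes 34 had enough counts and 22 were higher by at least 1 (10.3% of all genes), with 0 lower and a median of 1.23. HXK1, a hexokinase that is held low while glucose is plentiful, had 1416 counts (266 CPM) at 30 min, 18 counts (14.2 CPM) at 0 min and 111 counts (93.4 CPM) in WT. TSL1, a subunit of trehalose synthase, had 82.4 CPM at 30 min, against 15.8 CPM at 0 min and 38.7 CPM in WT. CTT1, the cytosolic catalase, had 126 counts at 30 min, 9 at 0 min and 10 in WT. At the start 7 of 23 of these genes were lower than in WT by at least 1 (3.21% of all genes) and 1 was higher (2.91%).

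In the xrn1 deletion the median of the general stress list was 1.94, and there HXK1 had a log2 difference of 4.83, HSP12 of 4.76, CTT1 of 2.99 and TSL1 of 2.67. The stress response element was in 31 of its 38 promoters (81.6%), against 34.1% of all promoters, and in 47.0% of the genes higher by at least 1. The list is made of known stress genes, so its share is part of how it was chosen. The median of its tail differences was -7.56 nt. Oxidative stress genes had 6 of 29 higher (10.3% of all genes) and 1 lower (4.99%), with a median of 0.67. UBI4, the stress-induced polyubiquitin gene, had 170 CPM at 30 min, against 54.3 CPM at 0 min and 56.4 CPM in WT.

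Ribosome biogenesis genes, which build and modify pre-ribosomes, were lower as a group. All 78 had enough counts, 49 were lower by at least 1 (4.99% of all genes) and 0 higher, with a median of -1.14 and a range of -1.71 to -0.33. Each of the 78 was below its 0 min level. NSR1, a nucleolar protein of pre-rRNA processing, had 373 CPM at 30 min, against 1224 CPM at 0 min and 848 CPM in WT. RPF2, which assembles the large subunit, had 107 CPM at 30 min, against 343 CPM at 0 min and 185 CPM in WT. At the start 77 of the 78 were above WT, 3 of them by at least 1 (2.91% of all genes), with a median of 0.56, and at 30 min 77 of the 78 were below WT. In the deletion the list's median was -0.61.

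Genes of cytosolic ribosomal proteins were lower by a smaller and even amount. All 137 had a median RNA difference of -0.59, with 1 past 2-fold (15.3% of all genes). It was RPL22B, which was higher with 559 CPM at 30 min, against 233 CPM at 0 min and 336 CPM in WT. In tags the median was -0.96 and 58 of 137 were lower by at least 1 (7.91% of all genes). Most of these genes come in near-identical pairs whose reads can be shared. Their tails were short from the start, with a median of 24.6 nt at 30 min, 27.2 nt at 0 min and 27.3 nt in WT, and the median difference was -2.59 nt. At least 5 nt shorter were 11 of 137, against 86.7% of all genes. RPL22B was one of them, with 31.1 nt at 30 min, against 49.6 nt at 0 min and 43.1 nt in WT.

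Translation factors were alike in RNA, with a median of -0.66, 2 of 29 lower (4.99% of all genes) and 0 higher, and their median tail difference was -7.34 nt. Mitochondrial ribosomal proteins, made for the other ribosome of the cell, had a median RNA difference of 0.22 with 0 of 66 past 2-fold (15.3% of all genes). Their mRNAs, known to be bound by the Puf3 protein, had the longest tails of the lists with at least 10 members at 30 min, with a median of 34.2 nt, against 44.1 nt at 0 min and 43.5 nt in WT. PUF3 mRNA itself kept a tail of 42.9 nt at 30 min, against 47.6 nt at 0 min and 49.8 nt in WT.

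Genes of mRNA decay were nearly level in RNA, and their tails were shorter about as often as those of all genes. Of 69 genes, 2 were higher (10.3% of all genes) and 2 lower (4.99%) by at least 1, with a median of -0.20. Of the 65 with tails, 60 were at least 5 nt shorter (86.7% of all genes), with a median of -12.8 nt. Of the other 5′ to 3′ exonuclease genes none passed 2-fold, with log2 differences of -0.84 for RAT1, the nuclear exonuclease, and -0.40 for its partner RAI1. DXO1, a decapping exonuclease, had 210 counts at 30 min, 26 at 0 min and 37 in WT, a log2 difference of 0.92 with a ratio of 1.92 (counting interval 1.28 to 3.01). The 12 exosome genes, for decay from the 3′ end, had a median of -0.53 and none past 2-fold (15.3% of all genes). Their median tail difference was -16.7 nt, with all 12 at least 5 nt shorter, as were 86.7% of all genes. Of the exosome cofactors MTR4, an RNA helicase, was lower, with 113 CPM at 30 min, against 275 CPM at 0 min and 179 CPM in WT.

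The 9 Ccr4-Not genes had a median RNA difference of -0.17 and none past 2-fold (15.3% of all genes). CCR4 itself had 77.5 CPM at 30 min, against 122 CPM at 0 min and 132 CPM in WT. All 9 had tails at least 5 nt shorter, as had 86.7% of all genes. PAN2 and PAN3, of the other deadenylase, had -0.02 and 0.08. Among decapping genes DCP1 had 0.31 and DCP2, the decapping enzyme, 0.15, and only EDC2, an enhancer of decapping, passed 2-fold, with 142 counts at 30 min, 6 at 0 min and 10 in WT. The tail of DCP2 was 21.3 nt at 30 min, against 42.6 nt at 0 min and 40.3 nt in WT.

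PAB1, the main poly(A)-binding protein, had 717 CPM at 30 min, against 1309.9 CPM at 0 min and 1311 CPM in WT, and its tail was 29.7 nt at 30 min, 33.5 nt at 0 min and 32.9 nt in WT. The 3 genes of poly(A)-binding proteins had a median tail difference of -4.25 nt, and none was 5 nt shorter. CTH1 and TIS11, related RNA-binding proteins that bring mRNAs to decay when iron is scarce, differed in direction. CTH1 had 332 counts at 30 min, 34 at 0 min and 37 in WT, with a tail of 22.2 nt at 30 min, against 47.3 nt at 0 min and 46.5 nt in WT. TIS11 (CTH2), an Aft1 target, had 50 counts at 30 min, 77 at 0 min and 11 in WT, with a log2 difference of -2.60 between 30 and 0 min.

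**Figure D5:**
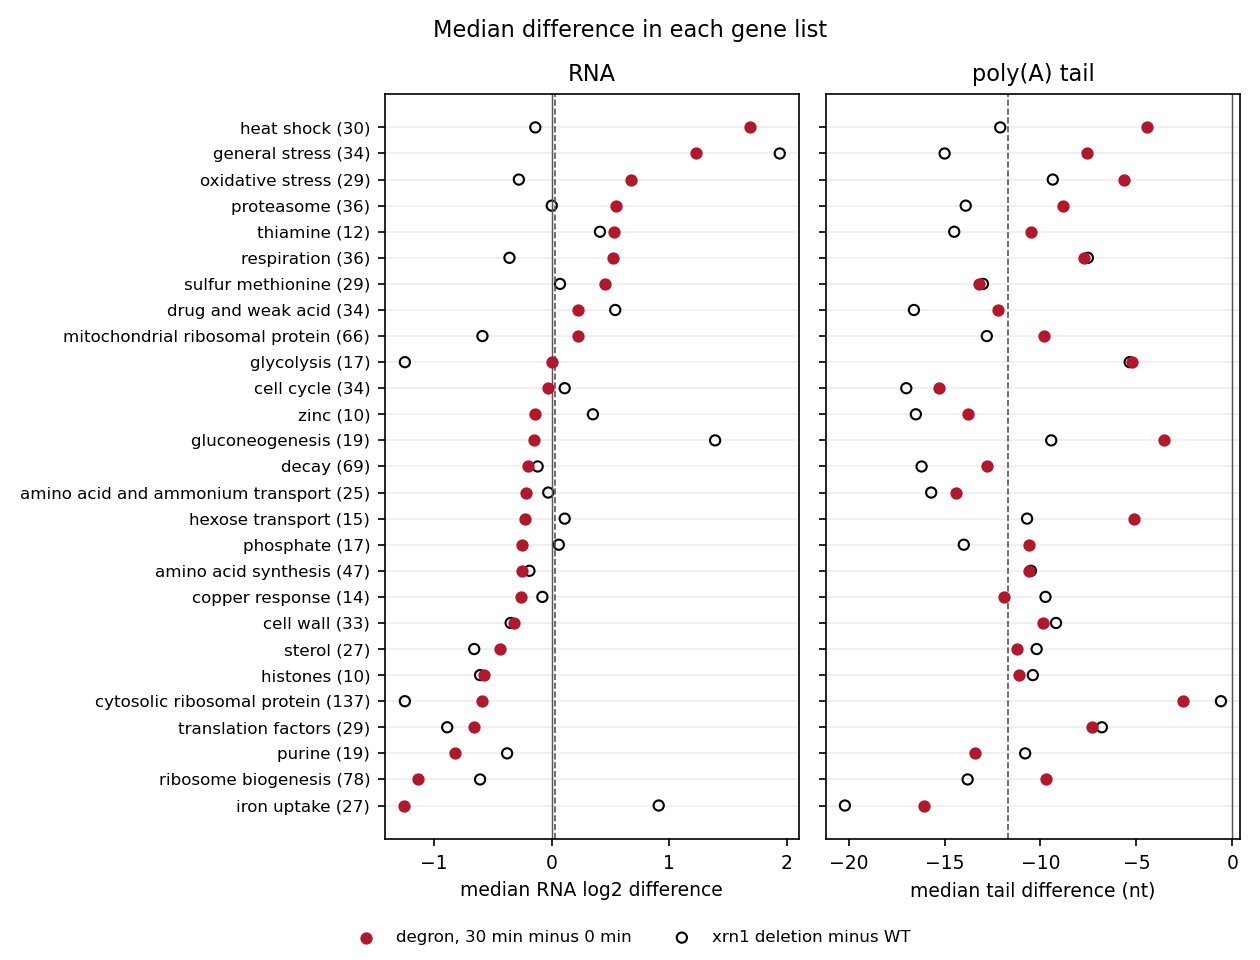
Median RNA log2 difference (left) and median tail difference in nt (right) of each gene list, 30 min minus 0 min in the degron culture (red points) and xrn1 deletion minus WT in separate libraries (open circles). Numbers after the names count the genes with enough RNA counts and dashed lines mark the medians of all genes in the degron comparison; every list median of the tail lies below 0, and heat shock and iron-uptake lists lie at the top and bottom for RNA.

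Glycolytic genes were level in RNA with a median of -0.00, and 1 of 17, ENO1, was higher (10.3% of all genes), with 759.8 CPM at 30 min, against 219.8 CPM at 0 min and 579.6 CPM in WT. TDH3, the main glyceraldehyde-3-phosphate dehydrogenase, had 13579 CPM at 30 min and 13574 CPM at 0 min, against 20757 CPM in WT. Their median tail difference was -5.25 nt. In the xrn1 deletion TDH3 had a log2 difference of -1.09 and ENO2, an enolase gene, of -1.55, while in the degron comparison TDH3 had 0.00 and ENO2 0.11. Of 15 genes of hexose transport and its control, 3 were higher (10.3% of all genes) and 2 lower (4.99%). The lower ones were the transporter genes HXT1 and HXT2, with log2 differences of -1.17 and -1.20.

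Purine synthesis had 6 of 19 genes lower (4.99% of all genes) and 0 higher, with a median of -0.82. ADE17, an enzyme of inosine synthesis, had 23.5 CPM at 30 min, against 119.7 CPM at 0 min and 19.3 CPM in WT. Its tail was 17.9 nt at 30 min, against 52.6 nt at 0 min and 36.7 nt in WT. Of 19 genes of the gluconeogenesis list, 1 was higher (10.3% of all genes) and 4 lower (4.99%), with a median of -0.15. Among them MDH2 and PCK1, both mostly silent in glucose, were high only at 0 min. They had 15.6 and 7.32 CPM at 30 min, 83.5 and 47.3 CPM at 0 min and 4.21 and 2.52 CPM in WT.

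Of the cell cycle list, 7 of 34 genes were higher (10.3% of all genes) and 1 was lower (4.99%). DSE1, a cell wall metabolism protein, had 203 CPM at 30 min, against 36.2 CPM at 0 min and 70.7 CPM in WT. CTS1, the chitinase, had 466 CPM at 30 min, against 147 CPM at 0 min and 452 CPM in WT. The 10 histone genes had a median of -0.58 and none past 2-fold (15.3% of all genes). The proteasome and ubiquitin list had a median of 0.55 with 2 of 36 higher (10.3% of all genes). Sulfur and methionine genes had 9 of 29 higher and 0 lower, respiration 6 of 36 higher and 0 lower, and sterol synthesis 0 of 27 higher and 1 lower, beside 10.3% higher and 4.99% lower of all genes.

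The single genes named next for large tail differences had tails over 50 nt at 0 min. They were picked by a difference that a long tail at 0 min enlarges, so this is partly built in. Besides CUP1-2, the gene of unnamed role YER053C-A had a difference of -27.9 nt with at least 100 tags in both libraries. Its tail was 24.6 nt at 30 min, against 52.5 nt at 0 min and 49.0 nt in WT. SCW11, a cell wall glucanase, had 24.7 nt at 30 min, against 51.3 nt at 0 min and 48.1 nt in WT. HSH49, a splicing factor subunit, had 28.5 nt at 30 min, against 53.9 nt at 0 min and 56.4 nt in WT. DIP5, an amino acid permease, had 26.2 nt at 30 min, against 52.1 nt at 0 min and 31.7 nt in WT, so that for this gene only the 0 min library was long.

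Longer tails were few and 4 of the 14 past 5 nt had at least 100 tags in both libraries. Beside SSA1 and HSP12 they were CAR2, of arginine breakdown, with 40.9 nt at 30 min, against 34.3 nt at 0 min and 40.3 nt in WT, and ICL1, the isocitrate lyase, with 29.2 nt at 30 min and 23.5 nt at 0 min. GLK1, a glucokinase, was 3.61 nt longer with 31.0 nt at 30 min, against 27.4 nt at 0 min and 36.1 nt in WT. In CAR2, SSA1 and HSP12 the 0 min library was the short one.

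Before auxin and copper the degron library was close to WT in most genes, with the exceptions given above. Of 5328 genes, 155 (2.91%) were higher and 171 (3.21%) lower by at least 1 at 0 min than in WT. In either direction this was 6.12%, above the medians of 1.24% and 1.69% between replicates of the sporulation and return-to-growth experiments. Those replicate pairs reached up to 3.74% and 12.5%. The median tail difference between 0 min and WT was -1.52 nt. Of 4288 genes, 897 (20.9%) were at least 5 nt shorter and 235 (5.48%) longer, 26.4% in both directions. That share is within the 19.1 to 37.1% seen between replicates of the return to growth, which had fewer tags per library. The 6 lowest RNA differences were HIS3 and 5 IDs that carry no gene name in the reference used, YLR154W-E among them with 267 counts at 30 min and 78 at 0 min, against 5263 in WT. NCE103, a carbonic anhydrase, had a tail of 40.1 nt at 0 min and 32.6 nt in WT, and 18.4 nt at 30 min.

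RNA counts and poly(A) tags went the same way for most genes, with a Spearman's rho of 0.75 across 5070 genes. Of 458 genes with RNA higher by at least 1 and enough tags, 442 had more tags too and 276 were past 2-fold. Of 255 with lower RNA, 251 had fewer tags and 160 were past 2-fold. RSC30, described above, was an exception with many tags. ADH2, the glucose-repressed alcohol dehydrogenase with a close paralog in ADH1, had a log2 difference of -0.43 in RNA and -2.37 in tags. Tag and tail differences had a Spearman's rho of -0.41 across 4747 genes.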

How the data were processed

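The deposited tables hold, per gene, raw RNA-seq read counts, counts of poly(A) tags, and a score that is the mean tail length in nt over those tags, all made by the authors. Per the submitters' processing notes, the tools were STAR 2.5.3a, bedtools (2.26.0 in 1 entry) and edgeR, with sacCer3. The sources used here do not state tail calling, use of strand, removal of duplicates or molecular identifiers. Empty cells of the tag table were read as 0.

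Libraries were grouped by sample title. Counts were scaled to CPM with TMM factors over the 3 libraries of the experiment (edgeR 4.0.16, R 4.3.3), and log2 differences were taken with a prior count of 2. RNA was compared at a mean of at least 10 counts, tags at a mean of at least 20, and tails at 20 tags or more in both libraries, without scaling. With 1 library per group no test was made. Past the fold means a log2 difference of at least 1 in size, and past the tail limit at least 5 nt. Ratios of counts have exact binomial 95% intervals, which cover counting error only. Total counts per library stand at the head of the results and set these intervals. Libraries of other experiments were scaled within their own experiment. The calculations (Python 3.11.15, pandas 2.3.3, numpy 2.4.6, scipy 1.17.1) were tested on simulated data.

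Of 6692 gene IDs, 6008 matched the R64 reference, from which names and the 500 bases before each coding start were taken. The 29 gene lists have 1011 distinct members, and 3 list names were not matched (ARG5,6, DUR1,2 and ADE5,7). The members and lists were chosen with earlier results of these data known, and RPP1 and MRP8 were removed from lists of ribosomal proteins after values were seen, because they are not ribosomal proteins. Genes named are XRN1, the copper and decay lists, the highest and lowest of each comparison at 100 counts or tags or more, and the highest and lowest of each list, besides the markers and a few genes named after their values were seen, such as SSA2 and HSC82. Alternatives tried were other scaling factors, prior counts, count and tag minima, limits, centring of tails and weighting by tags.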

Additional observations from a re-analysis of the deposited data

How the results depend on the processing

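No paired analysis was possible because each group has 1 library, and for the same reason no library could be left out. Library totals alone gave 1060 higher and 119 lower genes for RNA and 1653 higher and 46 lower for tags at 30 min against 0 min, and put the RNA medians of 10 lists on the other side of 0: decay 0.10, gluconeogenesis 0.16, zinc 0.16, amino acid transport 0.09, amino acid synthesis 0.05, copper 0.04, hexose transport 0.07, phosphate 0.06, cell cycle 0.27 and glycolysis 0.30. RLE factors left the RNA medians of all 29 lists in place. A mean of at least 50 counts, which leaves fewer genes, gave 393 higher at 30 min, and 74 higher and 70 lower at 0 min against WT; without a count filter the comparison of 0 min with WT had 358 higher and 380 lower. A log2 difference of 1.5 gave 253 higher and 65 lower at 30 min, and 45 higher and 53 lower at 0 min. A mean of at least 100 tags left 256 genes higher in tags.

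For tails at 30 min against 0 min, at least 100 tags gave 4 longer and 2085 shorter of 2531 genes, at least 5 tags gave 54 longer, a limit of 3 nt 30 longer and a limit of 10 nt 2 longer. Weighting by tags gave -5.22 nt in place of -11.7 nt. Centring each library on its median removes the shift itself and gave 1080 longer and 881 shorter. The list medians then furthest above 0 were 2.33 nt for cell wall, 9.63 for cytosolic ribosomal proteins, 4.65 for general stress, 8.64 for gluconeogenesis, 6.96 for glycolysis, 7.77 for heat shock, 7.07 for hexose transport, 2.40 for mitochondrial ribosomal proteins, 6.55 for oxidative stress, 3.38 for proteasome, 4.46 for respiration, 2.50 for ribosome biogenesis and 4.87 for translation factors. Above 0 by less were amino acid synthesis (1.61), thiamine (1.72), phosphate (1.60), histones (1.11), sterol (0.976), copper (0.331) and drug response (0.0235). At least 100 tags moved the heat shock median to -0.0769 nt and the sulfur median to -8.78 nt. For tails at 0 min against WT, longer and shorter genes numbered 23 and 171 with at least 100 tags, 447 and 555 centred, 484 and 1513 at 3 nt, and 41 and 220 at 10 nt, and 473 were longer with at least 5 tags. Where no construction is named, the cause was not tested.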
